A study of Mus musculus with 6 samples.

Results

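The mitosis and kinetochore genes described here are 34 genes that dividing cells use to enter mitosis, attach chromosomes to the spindle and separate them. They were taken by gene symbol from a deposited table of FPKM (fragment counts corrected for the length of the transcript and for library size), in which all 34 were found among 44804 rows that had a usable gene name. Each value came from 1 of 6 mouse samples. Mice 1157, 1168 and PDGF1 each gave 1 circulating tumor cell (CTC), which is a tumor cell collected from blood, and 1 tumor cell whose title ends in GBM. The labels give no strain, genotype, treatment or age for the mice, and each group holds 3 cells. The CTCs are labelled as single cells and the tumor cells are not, although the series text counts all 6 as single cells. RNA was amplified in 3 rounds before stranded library preparation, per the labels' protocols. Values below are listed in the order of mice 1157, 1168 and PDGF1 unless a mouse is named.

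Entry into mitosis is driven by the kinase CDK1 bound to A- and B-type cyclins. Kinetochores are protein assemblies built on centromeric chromatin that hold spindle microtubules, and unattached kinetochores feed a checkpoint that restrains the anaphase-promoting complex (APC/C), the ubiquitin ligase that ends mitosis by destroying cyclin B and securin. Most of these transcripts accumulate in G2 and M phase through promoter elements that include CCAAT boxes and the cell cycle homology region (CHR). The CHR is bound by the MuvB complex with B-MYB and FOXM1. The transcripts are low in resting cells. They are therefore widely read as marks of dividing cells in tumors.

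Letters of these promoter elements were looked for in RefSeq windows (GRCm38.p6) from 250 bases before to 50 bases after the transcription start, which were given for 29 of the 34 genes. The letters TTTGAA, the common form of the CHR, were present on either strand in 20 of 29 windows (69.0%), against 17.9% of all 32851 windows of the same length. CCAAT was present on either strand in 21 (72.4%) against 37.4%, and at least 2 copies were present in 15 (51.7%) against 11.7%. Both motifs were present in 17 windows (58.6%) against 6.95%, and neither was present in 5 (17.2%) against 51.7%. No bases were shared between a TTTGAA and a CCAAT match in these 29 windows. A match is a description of the letters and not evidence that a factor is bound. The 250 bases before the start are shown 5′ to 3′ on the gene's strand for the 3 genes of highest FPKM in the CTC of mouse 1157 and for Dsn1, whose values in CTCs lay below those in tumor cells. Capitals mark TTTGAA or CCAAT on either strand, where TTCAAA and ATTGG are the other-strand forms.
Ube2c (chr2:164769679-164769928, plus strand): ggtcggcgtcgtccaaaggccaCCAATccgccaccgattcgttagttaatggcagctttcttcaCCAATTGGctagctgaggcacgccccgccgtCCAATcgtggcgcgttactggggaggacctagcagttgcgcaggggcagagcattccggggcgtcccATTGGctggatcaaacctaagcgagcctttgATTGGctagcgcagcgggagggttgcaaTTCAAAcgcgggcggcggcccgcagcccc
Ccnb1 (chr13:100786487-100786736, minus strand): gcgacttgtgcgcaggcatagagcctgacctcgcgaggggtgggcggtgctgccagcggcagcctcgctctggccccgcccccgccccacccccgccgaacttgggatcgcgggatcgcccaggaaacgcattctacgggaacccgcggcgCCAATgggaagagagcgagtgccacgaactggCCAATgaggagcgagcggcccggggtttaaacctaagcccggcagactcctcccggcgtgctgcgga
Cenpa (chr5:30666636-30666885, plus strand): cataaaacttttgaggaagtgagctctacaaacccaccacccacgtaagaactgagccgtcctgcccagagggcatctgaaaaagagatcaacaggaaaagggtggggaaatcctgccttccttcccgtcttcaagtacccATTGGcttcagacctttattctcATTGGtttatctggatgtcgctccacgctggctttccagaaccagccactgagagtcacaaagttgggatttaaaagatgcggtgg
Dsn1 (chr2:157007076-157007325, minus strand): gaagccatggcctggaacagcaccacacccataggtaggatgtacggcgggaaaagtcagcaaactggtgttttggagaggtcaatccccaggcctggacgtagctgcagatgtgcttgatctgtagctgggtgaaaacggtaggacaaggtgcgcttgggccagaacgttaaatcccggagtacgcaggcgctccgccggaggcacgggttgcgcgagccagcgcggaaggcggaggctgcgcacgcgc
Ube2c held 6 CCAAT and 1 TTTGAA, Ccnb1 held 2 CCAAT, and Cenpa held 2 CCAAT here with 1 TTTGAA after the start. The Dsn1 window held neither motif.

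The cells differed widely in their FPKM totals and in the share of protein-coding genes. FPKM summed to 236427, 727351 and 46973 in the CTCs and to 80273, 615548 and 51239 in the tumor cells, and the share in named protein-coding genes ran from 11.9% in the CTC of mouse PDGF1 to 85.4% in the CTC of mouse 1168. Read depth is unknown, because only FPKM was analysed here. Smell and pheromone receptor genes served as a measure of background, and their 99th percentile was 0.770, 0.148 and 2.70 FPKM in CTCs and 1.94, 1.27 and 7.10 in tumor cells. Of 10 markers of oligodendrocyte progenitors and glioma, 10 reached 1 FPKM in the CTC of mouse 1168 and 8 in its tumor cell, with summed FPKM of 570 and 266. Only 3 did so in each cell of mouse 1157, and 0 and 1 did in mouse PDGF1.

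Mitosis transcripts were found broadly in mouse 1168 and sparsely in the other mice. At 1 FPKM or more, mouse 1168 had 19 of 34 genes in the CTC and 30 of 34 in the tumor cell, mouse 1157 had 9 and 8, and mouse PDGF1 had 3 and 5. In percent this was 55.9% and 88.2% in mouse 1168, where 43.0% and 49.8% of named protein-coding genes reached that level, 26.5% and 23.5% in mouse 1157, against 10.3% and 16.0%, and 8.82% and 14.7% in mouse PDGF1, against 4.83% and 10.3%. In all 6 cells the share of mitosis genes was thus above that of named protein-coding genes, a difference that was not tested. Against the receptor background of the same cell, 11, 27 and 2 mitosis genes lay above the 99th percentile in the CTCs and 5, 29 and 0 in the tumor cells. In the tumor cell of mouse PDGF1 no value of these genes stood above that background.

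**Figure D1:**
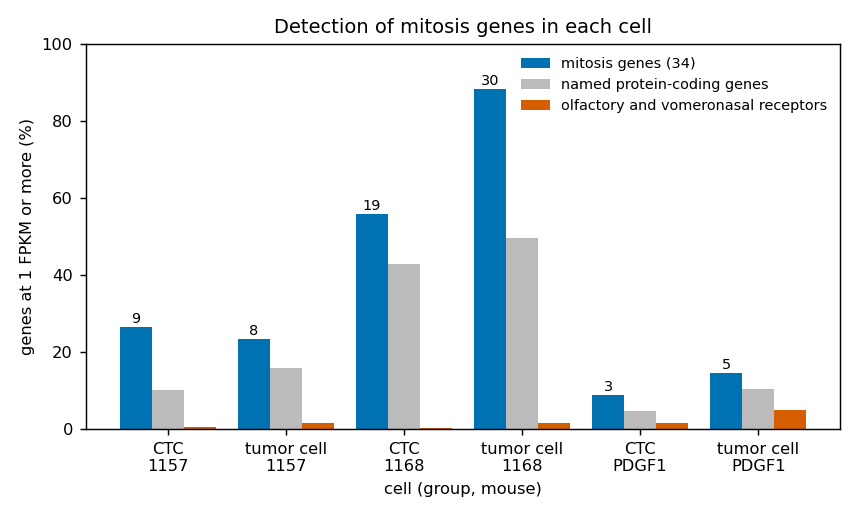
Percent of genes at 1 FPKM or more (y axis) in each cell (x axis) for the 34 mitosis genes (blue, with the number of genes above the bar), named protein-coding genes (grey) and receptor genes (orange). The tumor cell of mouse 1168 had 30 of 34 mitosis genes at this level and the CTC of mouse PDGF1 had 3.

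In the CTCs of mice 1157 and PDGF1 a few genes made up most of the signal. In the CTC of mouse 1157, Ube2c, Ccnb1 and Cenpa together took 91.9% of the summed FPKM of the 34 genes, and Cenpa alone took 66.2% in the CTC of mouse PDGF1, where the 3 highest took 89.9%. The 3 highest took 41.2% and 60.6% in the tumor cells of these mice. In mouse 1168 the 3 highest genes took 56.4% (CTC) and 53.5% (tumor cell), with Birc5 first in both. The summed FPKM of the 34 genes was 369, 215 and 19.1 in CTCs and 29.1, 373 and 16.6 in tumor cells. The median gene, however, was at 0.348, 1.36 and 0.0264 FPKM in CTCs and 0.348, 3.80 and 0.0721 in tumor cells. By this FPKM both cells of mouse 1168 stood highest, as they did in FPKM totals. Ranks within each cell gave another order. The median percentile of the 34 genes was 73.45, 59.21 and 59.96 in CTCs and 61.75, 68.01 and 62.04 in tumor cells. The CTC of mouse 1157 was thus highest and that of mouse 1168 lowest. Relative to the FPKM sum of named protein-coding genes, the summed FPKM of the 34 genes was lowest in both cells of mouse 1168.

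**Figure D2:**
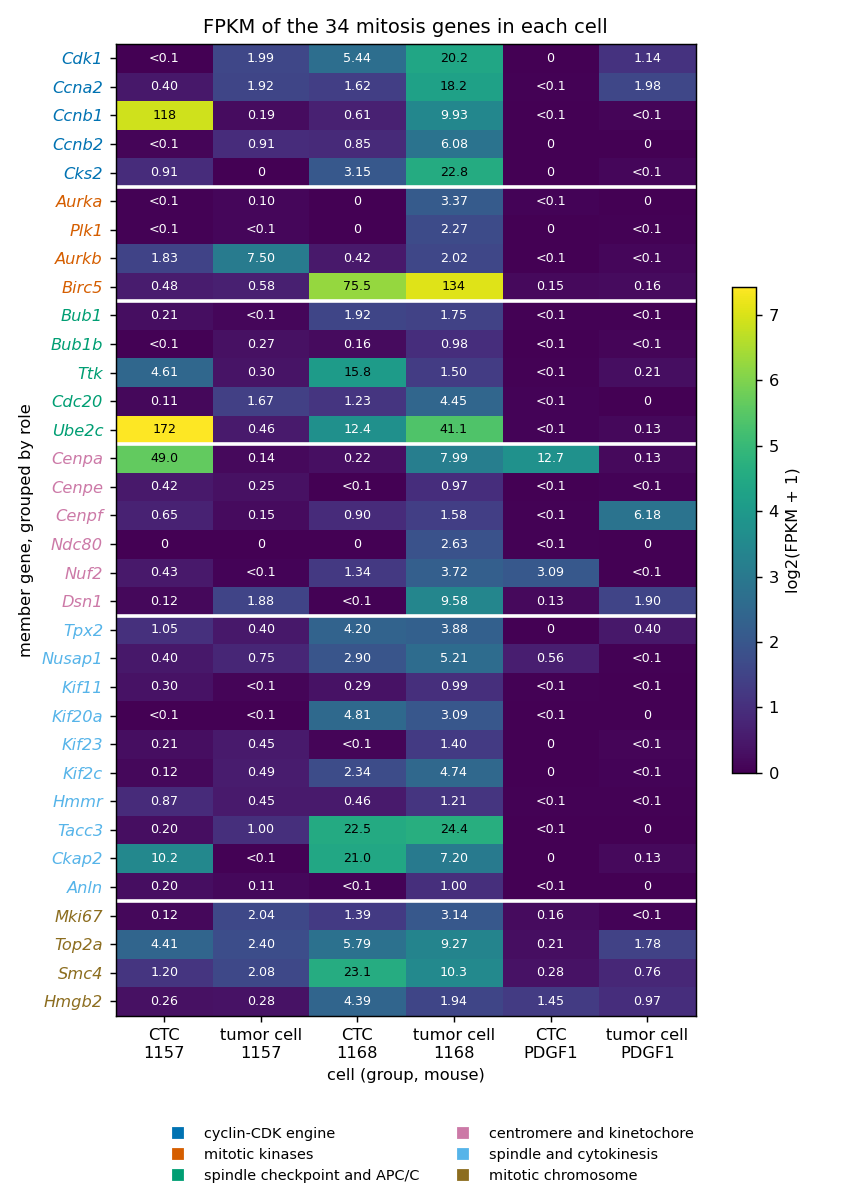
FPKM of each of the 34 mitosis genes (rows, coloured and divided by role) in each cell (columns); colour is log2(FPKM + 1), numbers are FPKM, and 0 means listed at 0. The tumor cell of mouse 1168 had 30 of 34 genes at 1 FPKM or more, while the CTC of mouse 1157 held 118 FPKM of Ccnb1, 172 of Ube2c and 49.0 of Cenpa among mostly low values.

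CTCs were compared with tumor cells over the 3 mice with limma on log2(FPKM + 1), for genes that reached 1 FPKM in 3 or more cells. Of the 34 genes, 15 met that filter. None of these 15 passed an adjusted p of 0.05, where 0 of 4165 genes passed in either direction (0.0%), and the unadjusted p was under 0.05 for 7 genes of the 4165, of which Dsn1 was 1. Of the 15, 8 had a higher and 7 a lower mean in CTCs, with a median log2 difference (CTC minus tumor cell) of 0.047, beside -0.058 for all 4165. With FPKM rescaled so that named protein-coding genes had the same sum in every cell, 6 were higher and 9 lower, with a median of -1.15 beside -0.98 for all 4165. The standard errors of the 15 genes ran from 0.757 for Cdc20 to 2.83 for Ube2c on the log2 scale.

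Among the genes of the cyclin-CDK engine, Cdk1 and Ccna2 were lower in the CTC than in the tumor cell of every mouse. Ccna2 encodes cyclin A2, which serves DNA replication and then mitotic entry. Its FPKM was 0.399, 1.63 and 0.0386 in CTCs and 1.91, 18.2 and 1.98 in tumor cells, so that the groups did not overlap, and the log2 difference was -1.82 (SE 1.49, adjusted p = 0.9999, limma). In the tumor cells of mice 1157 and PDGF1, Ccna2 was below the receptor 99th percentile. Cdk1, the kinase of mitotic entry, was at 0.0136, 5.44 and 0 FPKM in CTCs and 1.99, 20.2 and 1.14 in tumor cells. The CTC of mouse 1168 stood above the tumor cells of the other mice here, so the groups overlapped, with a log2 difference of -1.46 (SE 1.58, adjusted p = 0.9999, limma), and Cdk1 in the tumor cell of mouse PDGF1 was below that percentile. Ccna2 overlaps Exosc9, which encodes an exosome subunit, on the other strand. Exosc9 measured 114 and 68.1 FPKM in the CTC and tumor cell of mouse 1168, the opposite order to Ccna2. In mice 1157 and PDGF1 it was at most 0.366 FPKM, in the same order as Ccna2.

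Ccnb1 did not follow Cdk1. Ccnb1, which encodes cyclin B1, was at 118, 0.609 and 0.0119 FPKM in CTCs and 0.194, 9.93 and 0.0809 in tumor cells, high in the CTC of mouse 1157 and in the tumor cell of mouse 1168. That CTC of mouse 1157 held its partner Cdk1 at 0.0136 FPKM, so transcripts of the kinase and of the cyclin were not high together there. Ccnb2 was at 0.0819, 0.846 and 0 FPKM in CTCs and 0.907, 6.08 and 0 in tumor cells. Cks2, a small subunit that binds CDKs, was at 0.910, 3.15 and 0 FPKM in CTCs and 0, 22.8 and 0.0975 in tumor cells. All 4 genes of the cyclin B and Cdk1 complex were at 1 FPKM or more in the tumor cell of mouse 1168 and in no other cell.

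All 4 genes of the mitotic kinase group reached 1 FPKM in the tumor cell of mouse 1168 and 1 did in its CTC. Birc5, or survivin, a subunit of the chromosomal passenger complex that corrects faulty attachments, was the most abundant mitosis gene of mouse 1168, at 75.5 FPKM in its CTC and 134 in its tumor cell. Elsewhere it stayed between 0.151 and 0.583. Aurkb, the kinase of that complex, was at 1.83, 0.425 and 0.0141 FPKM in CTCs and 7.504, 2.02 and 0.0931 in tumor cells, lower in the CTC of each mouse with groups that overlapped. The other 2 subunits, Incenp and Cdca8, lay above 1 FPKM in both cells of mouse 1168, Incenp at 1.001 against 7.08 and Cdca8 at 10.2 against 13.5 (CTC against tumor cell). Cdca8 was also at 4.82 FPKM in the CTC of mouse 1157. Aurka, a kinase of spindle poles, was listed at 0 for the CTC of mouse 1168 and stood at 3.37 FPKM for its tumor cell, and Plk1, which acts at poles and kinetochores, was listed at 0 and at 2.27. Both were at most 0.104 FPKM in the 4 cells of the other mice.

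Checkpoint and APC/C genes split. Ube2c, the ubiquitin-conjugating enzyme that works with the APC/C, was at 172, 12.4 and 0.0415 FPKM in CTCs and 0.462, 41.1 and 0.126 in tumor cells. It thus had its highest value in the CTC of mouse 1157 but was lower in the CTC than in the tumor cell of mouse 1168, and the log2 difference over mice was 1.70 (SE 2.83, adjusted p = 0.9999, limma). Without the CTC of mouse 1157 this turned to -0.14. Ttk, the kinase also known as Mps1 that starts checkpoint signalling, was at 4.61, 15.8 and 0.0277 FPKM in CTCs and 0.2998, 1.497 and 0.212 in tumor cells. It was higher in the CTC in 2 of 3 mice. Cdc20, the activator of the APC/C that the checkpoint holds back, was at 0.107, 1.23 and 0.0435 FPKM in CTCs and 1.67, 4.45 and 0 in tumor cells. The checkpoint genes Bub1 and Bub1b, a kinase and its relative, were at most 1.91 and 0.981 FPKM in any cell.

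Among kinetochore genes, Dsn1 separated the groups. Dsn1 encodes a subunit of the MIS12 complex, the bridge between centromeric chromatin and the microtubule-binding NDC80 complex, and lies on chromosome 2 from 156995265 to 157007154 (minus strand, GRCm38). Its FPKM was 0.119, 0.0335 and 0.134 in CTCs and 1.88, 9.58 and 1.897 in tumor cells. All 3 CTCs thus lay under all 3 tumor cells, at means of 0.0954 ± 0.0542 (SD, n = 3) and 4.45 ± 4.44 (SD, n = 3), with a log2 difference of -2.02 (SE 1.03, adjusted p = 0.9999, limma). This gene met the filter through the tumor cells alone. Dsn1 and Ccna2 made 2 of 15 genes with all CTCs below all tumor cells, beside 1.3% of the 4165 genes, and 0 of 15 lay the other way, beside 0.264%. Since Dsn1 entered through the group where it was high, nothing is read from that share. In the tumor cells of mice 1157 and PDGF1, Dsn1 was below the 99th percentile of receptor genes, and there it cannot be told from background.

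The other MIS12 subunits were mixed. Pmf1 was at 0.170, 0.602 and 0.0646 FPKM in CTCs and 1.31, 1.07 and 0.945 in tumor cells, and Nsl1 was at most 0.0854 FPKM in CTCs and at least 0.289 in tumor cells. For both, as for Dsn1, all CTCs lay below all tumor cells. Neither met the filter, and both were chosen after their values were seen, so nothing is read from this. Every tumor cell value of Pmf1 and Nsl1 was below the receptor 99th percentile of its cell. Mis12 was at 0.0779, 18.1 and 0.0165 FPKM in CTCs and 20.9, 10.2 and 0.0172 in tumor cells, higher in the CTC of mouse 1168 where Dsn1 was lower. Counting subunits at 1 FPKM or more, the MIS12 complex had 0, 1 and 0 of 4 in CTCs and 3, 3 and 1 in tumor cells. These tumor cell counts include values below the receptor 99th percentile, Pmf1 in mice 1157 and 1168 and Dsn1 in mice 1157 and PDGF1. In the CTC of mouse 1168, Pmf1 was not counted but lay above that cell's percentile of 0.148 FPKM. For the NDC80 complex the counts were 2, 3 and 1 of 4 in CTCs and 0, 4 and 0 in tumor cells. Ndc80 itself was listed at 0 in 4 of the 6 cells and stood at 0.0231 FPKM in the CTC of mouse PDGF1 and 2.63 in mouse 1168's tumor cell. Its partner Nuf2 was at 0.426, 1.34 and 3.09 FPKM in CTCs and 0.0462, 3.72 and 0.0131 in tumor cells.

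Cenpa, the histone H3 variant that marks the centromere, was at 49.0, 0.223 and 12.7 FPKM in CTCs and 0.142, 7.99 and 0.133 in tumor cells. The CTCs of 1157 and PDGF1 were high and that of 1168 low, and the groups overlapped (log2 difference 2.06, SE 2.15, adjusted p = 0.9999, limma). Without mouse 1157 that difference was 0.36. In the CTC of mouse PDGF1, Cenpa and Nuf2 were the 2 mitosis genes above the receptor background, and Cenpa lay at the 99.7th percentile of named protein-coding genes of that cell. Cenpc1, which encodes another constitutive centromere protein, was at 61.6 FPKM in the same CTC against 0.323 in its tumor counterpart. Cenpf, a large protein of the outer kinetochore, reached 6.18 FPKM in the PDGF1 tumor cell, the highest mitosis gene there though under that cell's receptor background, and between 0.0385 and 1.58 in the other cells. Cenpe, a kinetochore motor, stayed between 0.00408 and 0.971 in all 6.

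**Figure D3:**
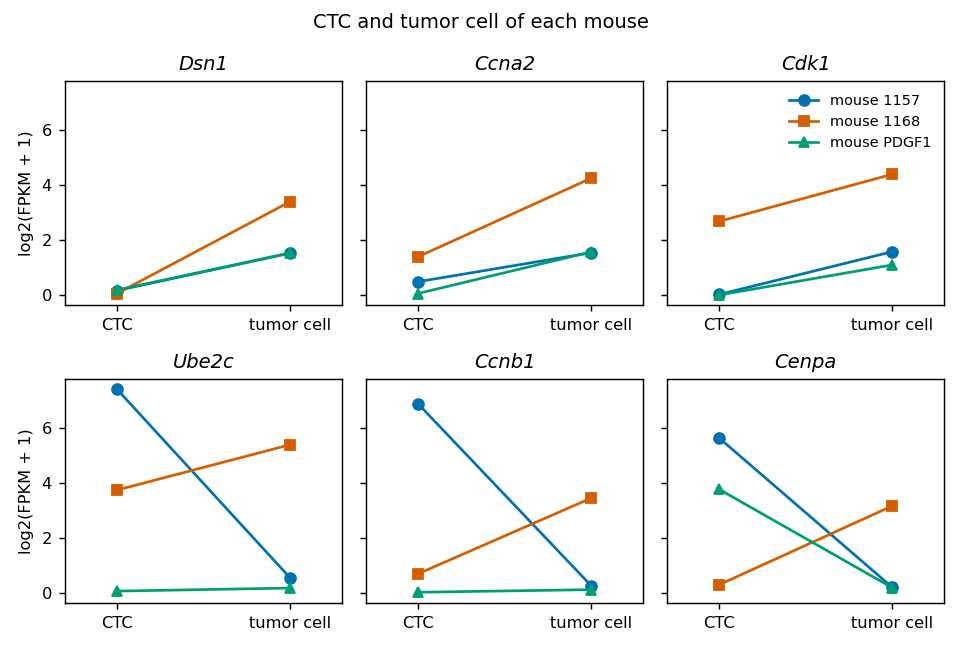
log2(FPKM + 1) of 6 mitosis genes in the CTC (left) and the tumor cell (right) of each mouse, joined by a line per mouse. Dsn1, Ccna2 and Cdk1 were lower in the CTC in 3 of 3 mice, whereas Ube2c and Ccnb1 had their highest value in the CTC of mouse 1157, as Cenpa did.

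Of 8 measured genes of the spindle and of cytokinesis, 1 was lower and 1 higher by at least 1 on the log2 scale in the CTC of mouse 1168, with a median difference of -0.36. Tacc3, which stabilises spindle microtubules, measured 22.5 FPKM in the CTC against 24.5. Tpx2, the activator of Aurora A at the spindle, was at 4.20 and 3.89, and Kif20a, a motor of the central spindle, at 4.81 and 3.09. Ckap2, a microtubule-binding protein, was higher in the CTC of 2 of 3 mice, at 10.2, 20.99 and 0 FPKM in CTCs and 0.0358, 7.20 and 0.131 in tumor cells (log2 difference 1.56, SE 1.82, adjusted p = 0.9999, limma). That difference was 0.65 without the CTC of mouse 1168, 0.62 without mouse 1157 and 2.88 without the CTC of mouse PDGF1. In mouse 1168 Nusap1, a spindle protein, was at 2.90 against 5.21 FPKM (CTC against tumor cell), Kif2c, a microtubule depolymerase, at 2.34 against 4.74, and Kif23, a motor needed for cytokinesis, at 0.0781 against 1.40. Kif11, Anln and Hmmr were at most 1.21 FPKM in any cell.

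In the group of mitotic chromosome genes, Top2a, the topoisomerase that untangles sister chromatids, reached 1 FPKM in 5 of 6 cells, at 4.41, 5.79 and 0.214 in CTCs and 2.403, 9.27 and 1.79 in tumor cells. Smc4, a core subunit of condensin, was at 1.20, 23.1 and 0.279 FPKM in CTCs and 2.08, 10.3 and 0.761 in tumor cells. Its partner in condensin, Smc2, was likewise higher in the CTC of mouse 1168, at 22.1 FPKM against 7.399. Hmgb2, a chromatin protein of dividing cells, was at 0.263, 4.40 and 1.45 FPKM in CTCs and 0.275, 1.94 and 0.969 in tumor cells. Mki67, the gene of the Ki-67 protein that coats mitotic chromosomes, was at 0.117, 1.39 and 0.160 FPKM in CTCs and 2.04, 3.14 and 0.0465 in tumor cells, lower in the CTC in 2 of 3 mice.

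Within a mouse, where 1 library is set against 1 other with no replicate check, genes at 1 FPKM or more in either cell were counted when they differed by at least 1 on the log2(FPKM + 1) scale. In mouse 1168, 15 of 30 mitosis genes were lower in the CTC, beside 23.6% of 10079 named protein-coding genes, and 3 were higher, beside 22.1%. Of the 30, 11 reached 1 FPKM in the tumor cell alone, so they had to be lower in the CTC, and 9 of them were lower by at least 1. Among the 19 at 1 FPKM or more in both cells, 6 were lower, beside 11.5% of 7428 named protein-coding genes, and 3 were higher, beside 24.0%. The 6 were Cdk1, Ccna2, Cks2, Cdc20, Ube2c and Nuf2. The median difference of the 30 was -0.91, beside 0.033 for those named protein-coding genes. By role, with no test between roles, all 5 genes of the cyclin-CDK engine, 3 of 4 mitotic kinase genes and 4 of 5 kinetochore genes were lower by at least 1, as were 2 of 4 checkpoint and APC/C genes, 1 of 8 spindle and cytokinesis genes and 0 of 4 chromosome genes. The 6 lowest among genes at 5 FPKM or more were Dsn1 (-3.36), Cenpa (-2.88), Ccna2 (-2.87), Ccnb1 (-2.76), Cks2 (-2.52) and Ccnb2 (-1.94). Ttk (2.75), Ckap2 (1.42) and Smc4 (1.09) were the 3 higher ones. Under the rescaling over named protein-coding genes, 13 were lower and 1, Ttk, was higher.

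**Figure D4:**
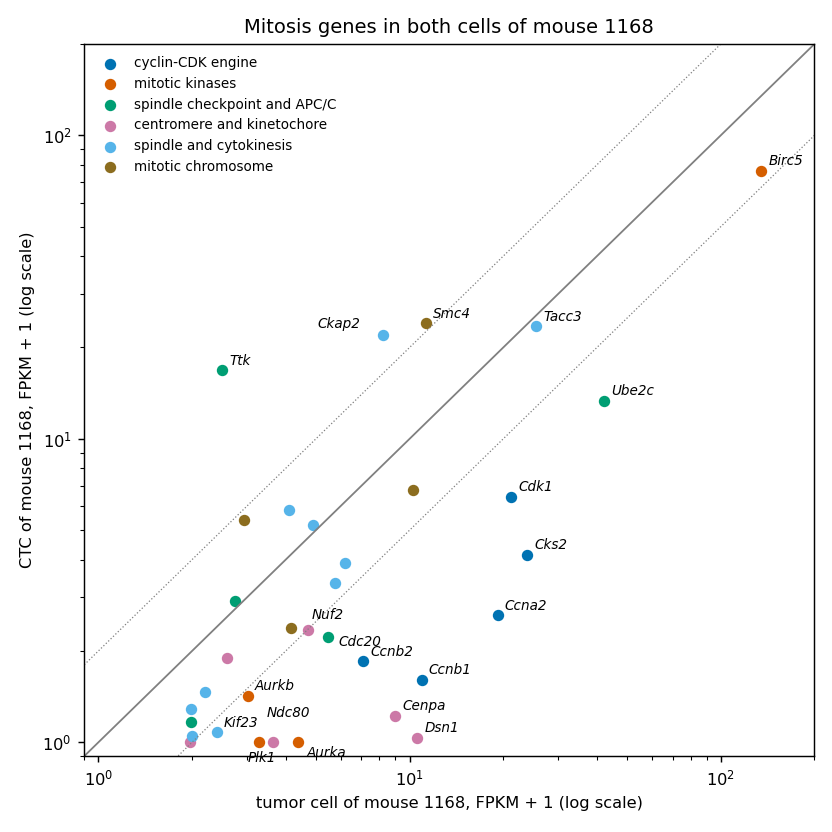
FPKM + 1 of the 34 mitosis genes in the tumor cell (x axis) and the CTC (y axis) of mouse 1168, both on log scales, coloured by role; the solid line marks equality and the dotted lines a log2 difference of 1 either way. The cyclin-CDK genes, Cenpa and Dsn1 lay under the lower dotted line, Ttk, Ckap2 and Smc4 above the upper.

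The other mice did not repeat that picture. Few genes there were at 1 FPKM in both cells of a mouse, 3 in mouse 1157 and 0 in mouse PDGF1, so nearly all counts came from genes measured in 1 cell alone. Of the 3 in mouse 1157, 1 was lower, beside 13.1% of named protein-coding genes at that level in both cells, and 0 were higher, beside 31.7%. In mouse 1157, 6 of 14 genes were lower in the CTC, beside 34.9% of named protein-coding genes, and 5 were higher, beside 24.4%, with a median of 0.034 beside -0.63. The 5 higher ones were Ube2c (6.88), Ccnb1 (6.64), Cenpa (5.45), Ckap2 (3.43) and Ttk (2.11). In mouse PDGF1, 5 of 8 were lower, beside 59.6%, and 2, Cenpa (3.59) and Nuf2 (2.02), were higher, beside 20.4%, with a median of -1.15 beside -1.17. The count of lower genes in mouse PDGF1 was therefore near that of genes at large. Rescaling over named protein-coding genes moved the median of those genes to -3.44, -0.30 and -2.27 in the 3 mice and that of the mitosis genes to -2.70, -0.85 and -2.17, so in mouse 1157 the sign of the mitosis median depended on the scaling. Cdk1, Ccna2 and Dsn1 were lower by at least 1 in all 3 mice, 3 of 5 mitosis genes measured in each mouse, beside 2.76% of 905 named protein-coding genes. In mice 1157 and PDGF1 these 3 genes were measured through the tumor cell alone, so nothing is read from that share. At any size, 9 of 34 were lower in the CTC of all 3 mice, beside 16.3%. Apart from Cdk1, Ccna2 and Dsn1, these were at most 0.159 FPKM in both cells of mouse PDGF1. A gene listed at 0 in a tumor cell cannot be lower in the CTC. In the tumor cell of mouse PDGF1 this held for 7 of the 34 and for 5731 of 18866 named protein-coding genes. Kif20a alone was higher in all 3, beside 4.34%, though at most 0.0139 FPKM in the cells of mice 1157 and PDGF1. Differences of all these genes share the same 6 cells and are not independent.

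Other mitosis genes, from 7 further lists covering kinetochore partners, the inner centromere, the checkpoint, the APC/C, condensin and cohesin, control of the G2/M transition and the spindle, were in the table for 114 genes. None of the 38 that met the filter passed limma, with 20 positive and 18 negative differences and a median of 0.19. Of the 38, 1 had all CTCs below all tumor cells, beside 1.3% of the 4165 genes, and 0 lay the other way, beside 0.264%. This was Racgap1, at 0.431, 1.47 and 0.0108 FPKM in CTCs and 14.5, 3.28 and 4.15 in tumor cells. In mouse 1168, 34 of 99 measured genes lay under the tumor cell by 1 or more and 9 lay above it by as much, with a median of -0.50. The inner centromere list had 8 of 17 lower and 0 higher, among them Mis18a, which primes centromeres for new CENP-A, at 1.42 FPKM against 15.7 (CTC against tumor cell). Of the checkpoint partners 5 of 8 were lower. Sgol1, or shugoshin, which protects centromeric cohesion, went the other way, at 111 FPKM against 1.39, while Kntc1 and Mad2l1bp were at 0.370 against 10.5 and 2.63 against 24.3. In the G2/M list 6 of 15 were lower and 0 higher, with Cdca3, which promotes destruction of the Wee1 kinase, at 0.0367 FPKM against 13.9. Among spindle genes, Kif22, a chromosome motor, was at 0.0338 FPKM against 6.31, but Psrc1 and Dlgap5 were at 19.1 against 1.903 and 48.0 against 10.6.

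The list of APC/C subunits and regulators was even in mouse 1168, with 2 of 18 lower and 2 higher and a median of 0.058. It joins subunits with regulators and targets, namely Fzr1, Fbxo5, Ube2s, Espl1 and Pttg1. Anapc4 was at 444 FPKM against 164, and Fzr1, the APC/C activator of late mitosis and G1, at 0.419 against 6.02. Condensin and cohesin genes had 4 of 15 lower and 3 higher. Genes of the G1/S transition and replication had 8 of 28 lower and 1 higher, with a median of -0.52, among them E2f1, a transcription factor of S phase entry, at 0.112 FPKM against 10.1 and Mcm4, a helicase subunit, at 5.31 against 17.9. The share lower among the G1/S genes was 28.6%, near the 23.6% of named protein-coding genes in that mouse. The share higher was 3.57%, however, beside 22.1%, and the median of -0.52 stood beside 0.033. The lists were not compared by a test.

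Markers of microglia, macrophages and leukocytes moved with this difference. Of 12 microglia and macrophage markers, 5 reached 1 FPKM in the CTC of mouse 1168 and 10 in its tumor cell, with summed FPKM of 53.8 and 1146, against 0.735 to 8.66 in the other 4 cells. Of 8 leukocyte markers the numbers were 0 and 4, with sums of 1.26 and 258. Of the microglia markers, Ctss was at 19.4 against 672 FPKM (CTC against tumor cell), and C1qa was listed at 0 against 13.04. Of 10 housekeeping genes in mouse 1168, 2 had CTC values lower by at least 1 and 0 had higher ones, with a median difference of -0.30. The oligodendrocyte progenitor and glioma markers went the other way, with 7 of 10 higher in the CTC by at least 1, 1 lower and a median difference of 1.76. The part of these markers in the difference of mitosis genes was not tested. None of 6 erythroid markers reached 1 FPKM in any cell, and their sum was at most 0.201. Of 5 endothelial markers 1 reached it in the tumor cells of mice 1157 and 1168 and none in the other 4 cells. Of 5 platelet markers, 2 reached it in each cell of mouse 1168, 1 in the tumor cell of 1157 and 0 elsewhere.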

How the data were processed

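RNA sequencing values of 6 mouse samples were used as 3 CTCs and 3 tumor cells, the replicate being the mouse. The authors deposited FPKM per gene symbol, made with STAR 2.4.2a and Cufflinks 2.2.1 on GRCm38, going by the submitters' processing notes. Filters, the treatment of multi-mapping reads and the use of strand are not given in the sources used here. Without strand, 6 of the 34 genes cannot be fully told from a protein-coding gene on the other strand (Ccna2, Cdc20, Ube2c, Nusap1, Kif20a and Tacc3). In mouse 1168 the overlapping gene had the same order of CTC and tumor cell for Cdc20, Ube2c, Nusap1 and Kif20a. For Ccna2 and Tacc3 it had the opposite order. A part of the overlapping genes in these values was not tested. Of 45038 rows, 27 named as dates and 211 with repeated names were left out. GENCODE mouse release 21 gave coordinates, 18866 named protein-coding genes and 1449 receptor genes. limma 3.58.1 in R 4.3.3 was run with a mean-variance trend on log2(FPKM + 1), two-sided, with Benjamini-Hochberg adjustment over 4165 genes. Its SEs follow the variance trend over all genes. The code was also run on simulated data, with a pass rule only at a spread smaller than that of these cells. That check does not show how many true differences would be found here. The log2 scale understates changes of low genes. Python 3.11.15, numpy 2.4.6, pandas 2.3.3 and matplotlib 3.10.9 did the rest.

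Cells of 1 mouse pair by animal. After group means were removed their correlation across genes was 0.178 for 1157, 0.689 for 1168 and 0.428 for PDGF1. The alternatives were other pseudocounts, filters and scalings, the mouse as a block, and leaving out cells or mice. The 34 genes and all lists were chosen with earlier results of these data known. Named with values were the genes that met the filter, that did not overlap between groups, that reached 5 FPKM in mice 1157 or PDGF1, or that were among the 6 most different per direction in mouse 1168, and up to 3 genes per other list. Other genes named, such as complex partners, were chosen after their values were seen. Nothing shows separate cultures or preparations beyond the mouse. The limma p-values over the 6 cells set each difference against the variance trend over all genes in these samples. They do not measure the spread of that gene's own values.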

Additional observations from a re-analysis of the deposited data

How the results depend on the processing

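Under every alternative tried, 0 of the tested mitosis genes were called by limma. Over all genes 0 were called in each, except with the mouse as a replicate block, where 1 gene was called that is not a mitosis gene. In that paired fit the smallest adjusted p of a mitosis gene was 0.526 (limma). An unadjusted p under 0.05 was found for 4 of the 15 mitosis genes, beside 217 of all 4165 genes. Over the alternatives the adjusted p of Dsn1 ran from 0.526 to 1.0 (limma).

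For the fitted differences of Dsn1, Ccna2, Cdk1, Ube2c, Ckap2 and Cenpa, 88 of 90 values kept their direction. Ube2c turned without the CTC of mouse 1157 (-0.14) and without both cells of that mouse (-0.88), and over the cells and mice left out it ran from -0.88 to 3.55. Without the tumor cell of mouse 1168, Cdk1 moved to -0.44 and Ccna2 to -0.91, and without mouse 1157 Cenpa moved to 0.36 and Ckap2 to 0.62.

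At 5 FPKM, 4, 8 and 1 genes were detected in the CTCs and 1, 14 and 1 in the tumor cells of mice 1157, 1168 and PDGF1. At the 99th percentile of receptor genes, the count was 5 and 0 for the tumor cells of 1157 and PDGF1. At a difference of 2 in place of 1, mouse 1168 had 6 lower and 1 higher, mouse 1157 had 0 lower and 5 higher, and mouse PDGF1 had 1 lower and 2 higher. Counting genes at 1 FPKM in both cells, chosen after seeing the data, left 6 lower in mouse 1168 and 1 lower and 0 higher in mouse 1157, and no gene to count in mouse PDGF1. These shifts follow from the stricter levels. Rescaling left 1 higher in mouse 1168, where Ckap2 moved from 1.42 to 0.87 and Smc4 from 1.09 to 0.58. Named protein-coding genes summed to 621000 FPKM in its CTC and 444200 in its tumor cell. Setting these sums equal lowers the CTC values relative to the tumor cell values. The count of lower genes nevertheless went from 15 to 13, and the median difference of the mitosis genes from -0.91 to -0.85. Rescaling lowered the FPKM of both cells of this mouse while the pseudocount stayed at 1, which shrinks differences of low genes. Depth is unknown, so low values and values of 0 cannot be given an error.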
